A study of Mus musculus with 23 samples.

Results

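The Hoxc genes are a row of homeobox genes on mouse chromosome 15, and their transcripts were followed in F9 cells given retinoic acid. The members were the genes of the count tables whose symbol is Hoxc4, Hoxc5, Hoxc6, Hoxc8, Hoxc9, Hoxc10, Hoxc11, Hoxc12 or Hoxc13. All 9 were found among the 36814 genes listed in each table, and 7 of them passed the filter on low counts. Hoxc11 and Hoxc12 did not pass it and are given as counts. The 7 genes passed it through the libraries of the late times, where they are high, so that a count over the genes that passed is a description and supports nothing.

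F9 is a mouse embryonal carcinoma line, and every group was made from it. The treatment was all-trans retinoic acid (RA) at 1e-07 M, and the control was its solvent dimethyl sulfoxide (DMSO) at 0.001%. Of 23 samples, 14 are mRNA libraries: 4 at 0 h, 2 for each RA time (6, 12, 24 and 48 h) and 1 for each DMSO time (24 and 48 h). The other samples are 8 chromatin immunoprecipitation libraries and 1 of total chromatin, not used here. No label names separate cultures, so each p-value reflects the spread among libraries and that spread may be technical.

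Hox genes encode homeodomain transcription factors that give cells a position along the head-to-tail axis. Within a cluster the genes at the 3′ end, with low numbers, are known to be switched on earlier and nearer the head than the genes at the 5′ end, with high numbers. Retinoic acid, bound to its receptors, is known to activate Hox clusters from the 3′ end, and Polycomb complexes are known to keep inactive clusters silent. In the RefSeq annotation of build GRCm38.p6 the row of genes runs Calcoco1, Hoxc13, Hoxc12, Hotair, Hoxc11, Hoxc10, Mir196a-2, Hoxc9, Hoxc8, Hoxc6, Hoxc5, Mir615, Hoxc4, Smug1, so Hoxc4 is the 3′ member.

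Apart from Hoxc13, Hoxc4 was the first member to pass 3 counts in a group, and its promoter is shown because it is the 1 of the 9 found in the RefSeq promoter table used. The sequence covers 250 bases before to 50 bases after the RefSeq start (GRCm38.p6, chr15:103034145-103034444, plus strand). Capitals mark the hexamer motifs that retinoid and related nuclear receptors are known to bind, AGGTCA and AGTTCA, both read here on the minus strand.
Hoxc4: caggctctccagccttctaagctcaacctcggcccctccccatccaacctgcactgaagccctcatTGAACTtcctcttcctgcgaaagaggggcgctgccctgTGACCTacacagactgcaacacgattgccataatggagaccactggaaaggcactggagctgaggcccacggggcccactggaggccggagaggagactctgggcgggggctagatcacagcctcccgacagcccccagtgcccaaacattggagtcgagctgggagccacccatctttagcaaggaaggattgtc
The window held 1 match of AGTTCA, starting at base 67, and 1 of AGGTCA, starting at base 105, and these do not overlap. Of 32851 RefSeq promoters of the same length, 16.3% held AGGTCA on either strand and 14% held AGTTCA. No direct repeat of the hexamers with a spacing of 2 or 5 bases lies in the Hoxc4 window, and each kind was found in 0.0396% of the promoters. A match is a description of letters and not a binding site.

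Gene counts per mRNA library ranged from 7.08 to 10.9 M (mega). By the share of reads that counting assigned to no feature there were 2 sets of libraries, at 57.30 to 59.43% (set 1) and 52.51 to 53.77% (set 2). Set 1 comprised both DMSO libraries and replicate 1 of 0 h, 6 h, 12 h, 24 h and 48 h, and set 2 the others, so set and replicate number cannot be told apart within an RA time. The labelled cell type was checked with fixed markers: 8 embryonal carcinoma genes summed to 4540 to 5890 CPM (counts per M of TMM-scaled gene counts) at 0 h, and to 2150 and 1320 CPM in 48 h replicates 1 and 2. Of these 8 genes 7 fell at 48 h, while 6 of 6 primitive endoderm markers rose, from a sum of 57.2 to 113 CPM at 0 h to 1300 and 1170 CPM. Of parietal endoderm markers 5 of 6 rose (161 to 326 CPM at 0 h, 6230 and 4410 CPM at 48 h), and of fibroblast markers 3 of 3 tested rose (0.559 to 2.92 CPM at 0 h, 107 and 59.9 CPM at 48 h). Of 7 tested neural markers 4 rose and 2 fell, and of 6 tested markers of mesoderm and limb mesenchyme 2 rose. Here rose and fell mean calls by edgeR at 48 h against 0 h. Over all genes 17.5% were called higher and 12% lower. The sums of some of these markers had moved by 6 h or 12 h, when the Hoxc genes were near 0. The primitive endoderm sum was 130 to 159 CPM at 6 h and 163 to 225 CPM at 12 h, above every 0 h library. The embryonal carcinoma sum was 3900 to 4220 CPM at 12 h, below every 0 h library. The parietal endoderm (260 to 578 CPM) and fibroblast sums (1.96 to 3.73 CPM) at 12 h still overlapped those of 0 h. The part of the markers in the Hoxc values was not tested. All 14 libraries are bulk samples, in which a change in the number of cells with a transcript and a change of its level per cell cannot be told apart.

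The Hoxc genes were near 0 in F9 cells until 12 h of RA and accumulated counts at 24 h and 48 h. Summed over the 9 genes, a library held 2 to 8 counts at 0 h, 5 to 7 at 6 h and 5 to 16 at 12 h. The sum was 91 to 112 counts at 24 h, and 152 and 584 counts in replicates 1 and 2 of 48 h. The DMSO libraries held 0 counts at 24 h and 5 at 48 h. In raw counts over a group, Hoxc4 first passed 3 counts at 12 h, Hoxc5, Hoxc6 and Hoxc8 at 24 h, and Hoxc9 and Hoxc10 at 48 h. Hoxc13 was over 3 counts already at 0 h, and Hoxc11 and Hoxc12 passed 3 counts in no group.

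**Figure D1:**
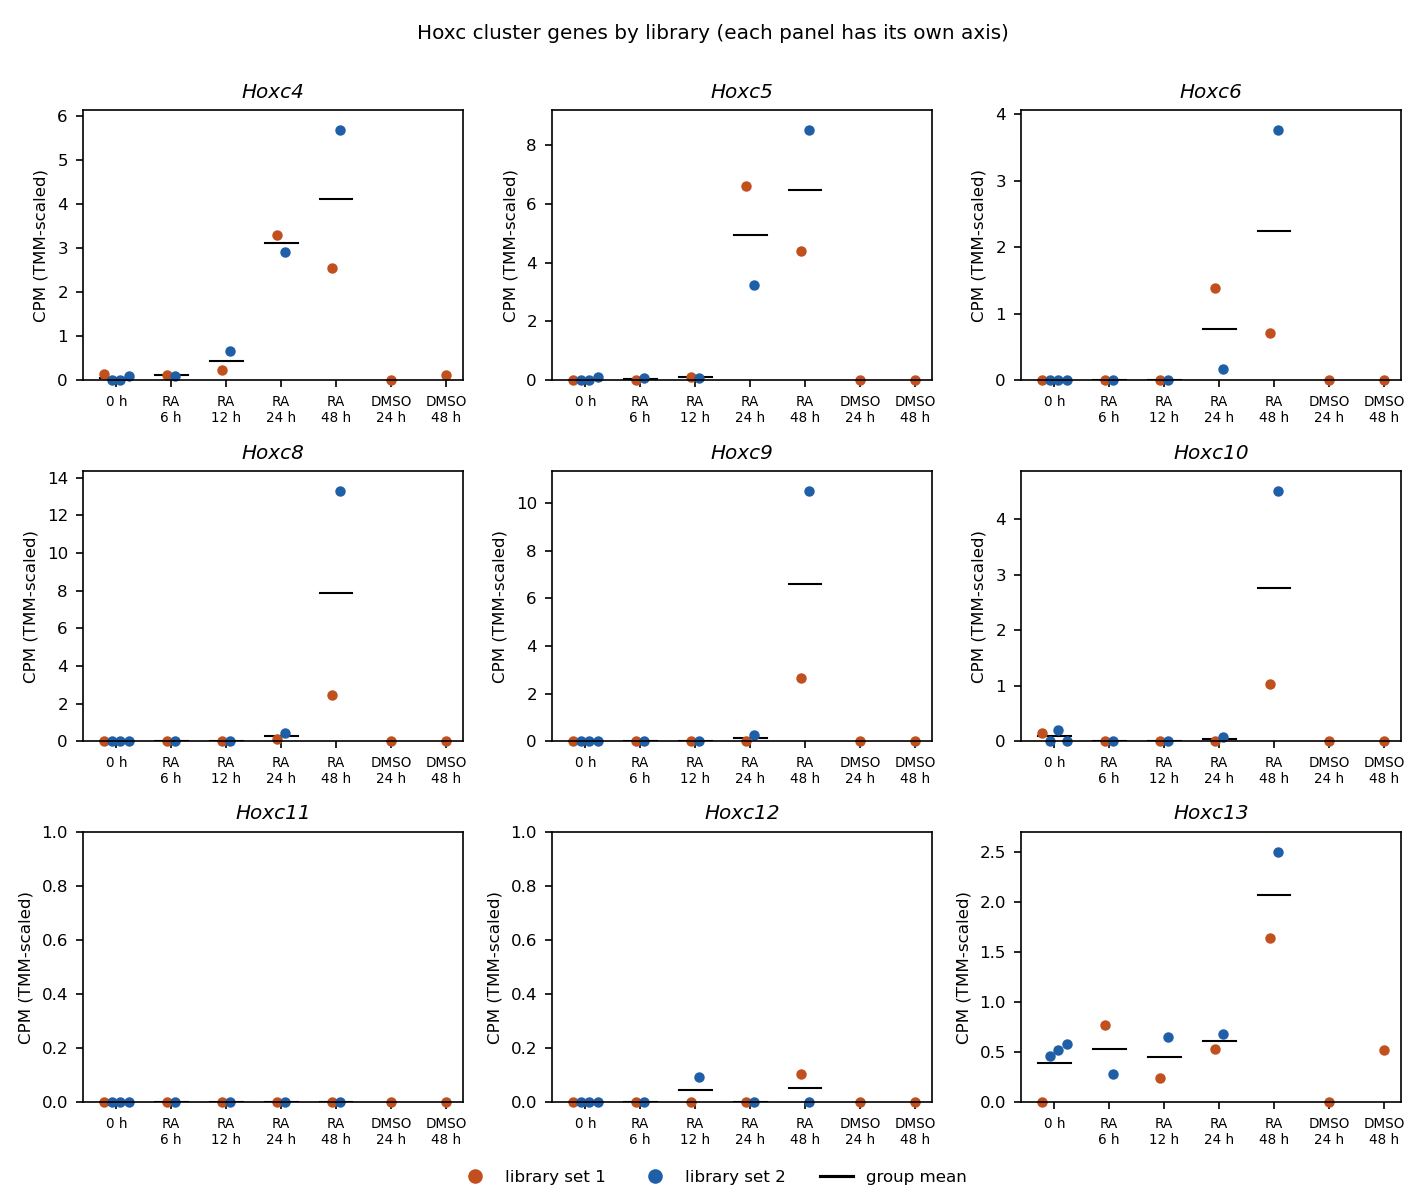
CPM of the 9 Hoxc genes in each mRNA library by group, with points coloured by library set, horizontal bars for group means and a separate axis in each panel. Hoxc4 and Hoxc5 stand above 0 h at 24 h, Hoxc8, Hoxc9 and Hoxc10 at 48 h with replicate 2 (set 2) above replicate 1 (set 1), and Hoxc11 is at 0 counts throughout.

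Hoxc4 (ENSMUSG00000075394), which takes part in patterning the neck and, in B cells, in switching on the enzyme of antibody diversification, had 1, 0, 0 and 1 counts in 0 h replicates 1 to 4. It had 1 and 1 counts at 6 h, 2 and 7 at 12 h, 31 and 34 at 24 h, and 25 and 68 in 48 h replicates 1 and 2. The DMSO libraries had 0 counts at 24 h and 1 at 48 h. Every library of 12 h lay above every library of 0 h, and the 24 h and 48 h libraries lay above those of 12 h.

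In normalized units Hoxc4 stood at 0.0619 ± 0.0747 CPM at 0 h (SD, n = 4), 0.448 ± 0.293 at 12 h (n = 2), 3.1 ± 0.279 at 24 h (n = 2) and 4.12 ± 2.2 at 48 h (n = 2). The ratio of its counts to 0 h, at equal numbers of gene counts, was 8.88 at 12 h (95% interval 1.84 to 84.4, counting error only), 61.8 at 24 h (16.4 to 521) and 88.0 at 48 h (23.7 to 738). In edgeR's quasi-likelihood test, adjusted by Benjamini-Hochberg over 16155 genes, Hoxc4 rose at 24 h with a log2 change of 5.51 ± 0.79 (SE, adjusted p = 0.0018) and at 48 h with 5.92 ± 0.79 (adjusted p = 0.000468). The 12 h change of 2.79 ± 0.91 did not pass (edgeR adjusted p = 0.165).

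Hoxc5 (ENSMUSG00000022485), which acts with Hoxa5 in motor neurons of the neck that supply the diaphragm, had 0, 0, 0 and 1 counts at 0 h, 0 and 1 at 6 h and 1 and 1 at 12 h. It had 62 and 38 counts at 24 h and 43 and 102 at 48 h, in replicates 1 and 2. Both DMSO libraries had 0 counts. The 24 h and 48 h groups overlap, and both lie above every earlier library.

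Hoxc5 stood at 0.0243 ± 0.0487 CPM at 0 h (n = 4), 4.93 ± 2.37 at 24 h (SD, n = 2) and 6.46 ± 2.9 at 48 h (n = 2). The ratio of counts to 0 h was 190 at 24 h (33.3 to 7580) and 274 at 48 h (48.5 to 10900), wide because 0 h held 1 count. In edgeR's test Hoxc5 rose at 24 h by 6.95 ± 0.82 on the log2 scale (SE, adjusted p = 0.000526) and at 48 h by 7.34 ± 0.81 (adjusted p = 0.000171). Leaving out each 0 h, 24 h or 48 h library in turn ended neither the Hoxc4 nor the Hoxc5 call at these times.

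Hoxc6 (ENSMUSG00000001661), a gene of forelimb-level motor neurons, had 0 counts in all libraries of 0 h, 6 h, 12 h and DMSO. It had 13 and 2 counts in 24 h replicates 1 and 2, and 7 and 45 in 48 h replicates 1 and 2. The order of the replicates was opposite at the 24 h and 48 h times, and the groups overlap. The CPM were 1.38 and 0.171 at 24 h and 0.718 and 3.76 at 48 h.

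Against a floor of 3 counts over the 0 h group, Hoxc6 was at least 9.5-fold higher at 24 h and at least 32.8-fold higher at 48 h. Here and below, "at least" covers the counting error of the reference and not that of the RA counts, which are taken as observed. The edgeR test did not pass at 24 h (adjusted p = 0.0986) and passed at 48 h (adjusted p = 0.0229), with a fitted log2 change of 7.42 ± 1.65 (SE) that depends on the prior count. Without 48 h replicate 2, the adjusted p at 48 h was 0.127.

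Hoxc8 (ENSMUSG00000001657), which patterns ribs and motor neurons of the forelimb level, had 0 counts in all libraries of 0 h, 6 h, 12 h and DMSO. It had 1 and 5 counts in 24 h replicates 1 and 2, and 24 and 159 in 48 h replicates 1 and 2. Both 48 h libraries lay above both of 24 h. The CPM were 0.107 and 0.428 at 24 h, and 2.46 and 13.3 at 48 h.

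Hoxc8 was at least 3.8-fold above the 0 h floor at 24 h and at least 115-fold above it at 48 h, and its counts at 48 h were 30.4 times those at 24 h (13.7 to 83.8). The edgeR test of 48 h against 0 h passed (adjusted p = 0.00554) and that of 24 h did not (adjusted p = 0.16). With a term for the library set, which called 15.5% of genes higher at 24 h, Hoxc8 rose at 24 h (log2 change 4.92, edgeR adjusted p = 0.0215), and with the replicate block its adjusted p was 0.0738.

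Hoxc9 (ENSMUSG00000036139), known in the spinal cord for setting the thoracic motor columns and for repressing forelimb-level Hox genes, had 0 counts in all libraries of 0 h, 6 h, 12 h and DMSO. It had 0 and 3 counts in 24 h replicates 1 and 2, and 26 and 126 in 48 h replicates 1 and 2. The 48 h libraries lay above both of 24 h, at 2.67 and 10.5 CPM against 0 and 0.257. It was at least 95.9-fold above the 0 h floor at 48 h, and its edgeR test against 0 h passed (adjusted p = 0.0071). Counts at 48 h were 50.5 times those at 24 h (16.9 to 247).

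Hoxc10 (ENSMUSG00000022484), a gene of lumbar motor neurons and the hindlimb level, had 1, 0, 2 and 0 counts at 0 h and 0 in every library of 6 h, 12 h and DMSO. It had 0 and 1 counts at 24 h, and 10 and 54 in 48 h replicates 1 and 2. The 24 h libraries overlap those of 0 h, and both 48 h libraries lie above them. Hoxc10 rose at 48 h against 0 h, with counts 40.4 times those of 0 h (13.2 to 201) and a log2 change of 4.86 ± 1.09 (SE, edgeR adjusted p = 0.0109). Without 48 h replicate 2, Hoxc10 did not pass the filter on low counts and was not tested.

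Hoxc11 (ENSMUSG00000001656) had 0 counts in all 14 libraries, which allows up to 3 counts of 131 M, or 0.0228 CPM over the libraries together, for counting error only. Hoxc12 (ENSMUSG00000050328) had 1 count in 12 h replicate 2, 1 in 48 h replicate 1 and 0 in the other libraries. Neither was detectable at this depth beyond the floor. Hotair, a noncoding RNA made from the cluster, had 1 count in 0 h replicate 3 and 0 elsewhere, and the microRNA genes Mir196a-2 and Mir615 had 0 counts in all 14 libraries, which measure mRNA and are no assay of mature microRNAs.

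Hoxc13 (ENSMUSG00000001655), at the 5′ end and known for the keratin genes of hair and nails, differed from its neighbours in having counts from the start. It had 0, 5, 5 and 6 counts at 0 h, 6 and 3 at 6 h, 2 and 7 at 12 h, 5 and 8 at 24 h, and 16 and 30 at 48 h. The DMSO libraries had 0 counts at 24 h and 4 at 48 h. The 6 h, 12 h and 24 h libraries overlap those of 0 h, and both 48 h libraries lie above every other library.

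Hoxc13 stood at 0.394 ± 0.267 CPM at 0 h (SD, n = 4), 0.608 ± 0.107 at 24 h (n = 2) and 2.07 ± 0.61 at 48 h (n = 2), a count ratio of 5.44 to 0 h (3.02 to 10.3). It rose at 48 h by 2.3 ± 0.76 on the log2 scale (SE, edgeR adjusted p = 0.0425). That call rests on single libraries: it was lost without 0 h replicate 2, 3 or 4 (adjusted p = 0.0816, 0.0749 and 0.0653) and without 48 h replicate 1 or 2 (0.0999 and 0.187).

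Over all genes, edgeR called 1.47% higher at 6 h, 2.15% at 12 h, 8.08% at 24 h and 17.5% at 48 h against 0 h, comparisons that share the 0 h libraries. Of the 9 Hoxc genes it called 0 at 6 h, 0 at 12 h, 2 at 24 h and 7 at 48 h, all higher. At an unadjusted p under 0.05 the numbers were 0, 1, 4 and 7, all higher, against 6.1, 8.39, 15.9 and 23% of all genes. DESeq2, which called 2.54, 3.97, 9.44 and 17.2% of genes higher at these times, called 0, 0, 2 and 3 Hoxc genes. The 3 genes it called at 48 h were Hoxc4 (adjusted p = 7.98e-06), Hoxc5 (7.34e-08) and Hoxc13 (0.0479), and its adjusted p was 0.0663 for Hoxc6, 0.171 for Hoxc8, 0.186 for Hoxc9 and 0.111 for Hoxc10. The DESeq2 log2 changes that did not pass were larger than that of Hoxc13 (2.34 ± 0.96, SE) but had wider SE. They were 6.78 ± 2.96 for Hoxc6, 8.6 ± 4.79 for Hoxc8, 8.34 ± 4.79 for Hoxc9 and 4.97 ± 2.44 for Hoxc10. Hoxc6, Hoxc8 and Hoxc9 had 0 counts at 0 h.

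Every 48 h library lay above every 0 h library for 7 of the 9 genes, also within each library set, and 27.4% of all tested genes showed that pattern. At 24 h 4 of the 9 genes showed it (Hoxc4, Hoxc5, Hoxc6 and Hoxc8), against 19% of all tested genes, at 12 h 1 did (Hoxc4) against 13.5%, and at 6 h 0 did against 10.3%. Both 48 h libraries lay above both 24 h libraries for 4 of the 9 genes (Hoxc8, Hoxc9, Hoxc10 and Hoxc13), against 20.2% of all tested genes. Without 48 h replicate 2, which leaves 1 library in that group, edgeR called fewer genes over all genes. Of the Hoxc calls at 48 h, those of Hoxc4, Hoxc5, Hoxc8 and Hoxc9 remained. A stricter filter kept genes that reached 1 CPM in at least 4 libraries, and under it 18% of genes were called higher at 48 h. Of the 9 genes only 2 passed that filter, Hoxc4 and Hoxc5, and both were called at 48 h. The others were not tested under it. A gene high at 48 h alone cannot pass it, since that group has 2 libraries.

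Between 24 h and 48 h the ratio of counts was lowest for the 3′ genes Hoxc4 and Hoxc5. Counts of Hoxc4 at 48 h were 1.42 times those at 24 h (1.03 to 1.99) and those of Hoxc5 were 1.44 times (1.11 to 1.88). For Hoxc6 the ratio was 3.45 (1.91 to 6.6), for Hoxc10 63.7 (11.0 to 2560) and for Hoxc13 3.52 (1.87 to 7.11). The intervals cover counting error only, and the 48 h replicates differed by more than that error for each of these genes other than Hoxc13.

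In the edgeR test of 48 h against 24 h, in which 0.489% of all genes were called higher, 0 Hoxc genes passed and 3 were higher at an unadjusted p under 0.05, against 8.07% of all genes. DESeq2, which called 2.96% of genes higher, called 0 Hoxc genes. It gave no adjusted p to 3 of them, Hoxc6, Hoxc10 and Hoxc12. Its log2 changes were 4.89 ± 5.43 for Hoxc8, 5.7 ± 5.47 for Hoxc9 and 5.91 ± 3.01 for Hoxc10 (SE). The edgeR adjusted p was 0.181 for Hoxc8, 0.176 for Hoxc9 and 0.146 for Hoxc10, and 0.867 for Hoxc4 and 0.866 for Hoxc5. With the replicate number as a block, which called 9.63% of genes higher, Hoxc8 rose by 4.8 ± 0.65 (SE, edgeR adjusted p = 0.00117), Hoxc9 by 5.57 ± 0.78 (0.00143) and Hoxc10 by 5.58 ± 1.15 (0.00808). In that fit Hoxc4 had a log2 change of 0.36 ± 0.51 (adjusted p = 0.666) and Hoxc5 of 0.42 ± 0.5 (0.601). The difference between the members' changes was not tested.

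**Figure D2:**
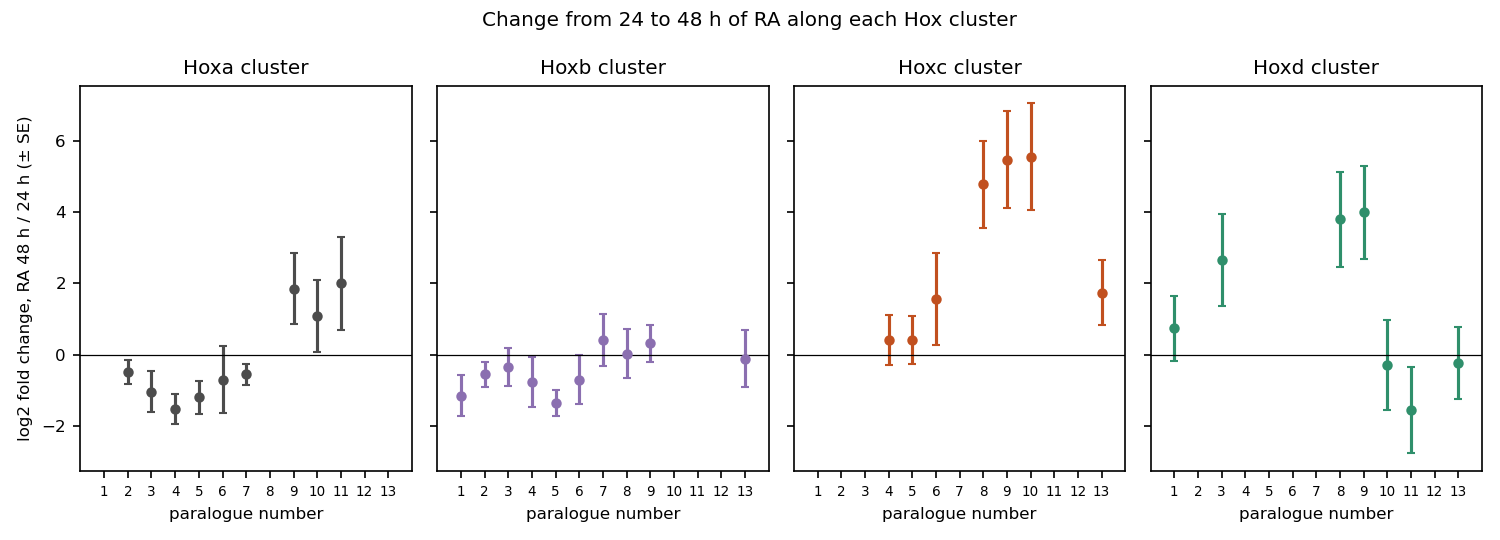
Log2 change of tested Hox genes from 24 h to 48 h of RA, without the block, by its paralogue number, 1 panel for each cluster, with bars of 1 SE. Hoxc8, Hoxc9 and Hoxc10 lie at 4.77, 5.46 and 5.55 and Hoxc4 and Hoxc5 at 0.41 and 0.4, while Hoxa2, Hoxa3, Hoxa4 and Hoxa5 lie below 0.

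From 24 h to 48 h the makeup of the counts on 6 of the genes, Hoxc13 left out, moved toward the 5′ side. Hoxc13 held 16 of the 22 Hoxc counts at 0 h, 9 of 21 at 12 h and 13 of 203 at 24 h, so over all 9 genes no single direction runs from 0 h to 48 h. Of the counts on Hoxc4, Hoxc5, Hoxc6, Hoxc8, Hoxc9 and Hoxc10, those on Hoxc8, Hoxc9 and Hoxc10 made up 1 of 107 in 24 h replicate 1 (0.935%, exact Clopper-Pearson 95% interval 0.0237 to 5.1%) and 9 of 83 in 24 h replicate 2 (10.8%, 5.08 to 19.6%). They made up 60 of 135 in 48 h replicate 1 (44.4%, 35.9 to 53.2%) and 339 of 554 in 48 h replicate 2 (61.2%, 57.0 to 65.3%). Both 48 h shares lie above both 24 h shares, and within each time the share was higher in replicate 2. The grouping of genes was chosen after their values were seen, the intervals cover counting error only, and the share is of counts and not of transcripts, since gene lengths were not used.

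**Figure D3:**
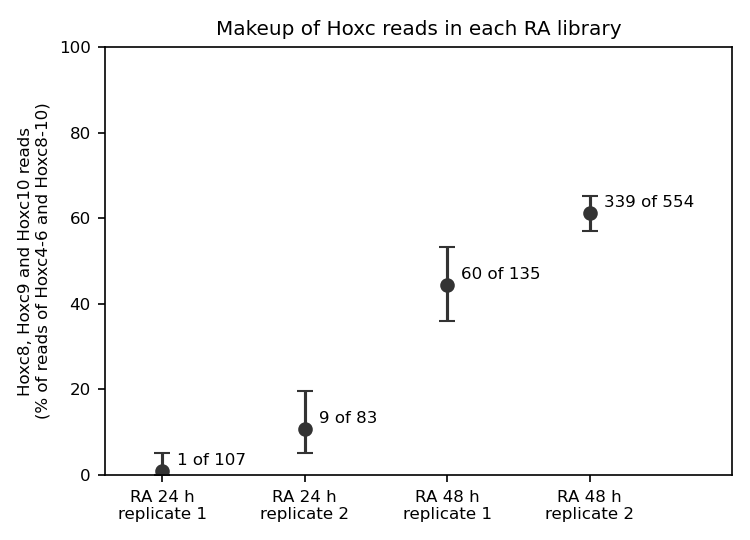
Share of Hoxc8, Hoxc9 and Hoxc10 among the counts on 6 Hoxc genes, in percent, for each 24 h and 48 h RA library, with exact 95% intervals for counting error. The 24 h libraries lie at 0.935% and 10.8%, and the 48 h libraries at 44.4% and 61.2%.

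The 48 h replicates differed in their Hoxc levels. At equal numbers of gene counts, replicate 2 held 5.46 times the Hoxc8 counts of replicate 1 (3.54 to 8.77), 5.3 times those of Hoxc6 (2.37 to 13.9), 4.45 times those of Hoxc10 (2.24 to 9.8) and 3.99 times those of Hoxc9 (2.6 to 6.35). The ratio was 2.24 for Hoxc4 (1.4 to 3.7), 1.95 for Hoxc5 (1.36 to 2.86) and 1.55 for Hoxc13 (0.816 to 3.04). In CPM, 5 of the 9 genes were at least 2 times as high in replicate 2, against 8.14% of all tested genes with counts in 48 h replicate 1.

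At 24 h the gap did not run one way. Of the 9 genes, 3 (Hoxc8, Hoxc9 and Hoxc10, each at 0 to 5 counts) were at least 2 times as high in replicate 2. The share was 14.1% over tested genes with counts in 24 h replicate 1, and of the 3 only Hoxc8 had counts there. Replicate 2 held 0.937 times the Hoxc4 counts of replicate 1, 0.524 times those of Hoxc5 (0.34 to 0.797) and 0.132 times those of Hoxc6 (0.0144 to 0.581). In the other clusters at 48 h, the ratio was 6.07 for Hoxa9, 6.64 for Hoxa10, 9.89 for Hoxa11 and 5.65 for Hoxd9, and 0.731 to 0.933 for Hoxa2, Hoxa3, Hoxa4 and Hoxa5. The summed markers of embryonal carcinoma, primitive endoderm, parietal endoderm and fibroblasts given above were lower in 48 h replicate 2 than in replicate 1. So were the neural ones (129 and 104 CPM in replicates 1 and 2). Those of mesoderm and limb mesenchyme were at 18.3 CPM in replicate 1 and 34.1 in replicate 2. In that list Meox1 stood at 9.64 and 19.2 CPM and Twist1 at 4.82 and 12. Tbx4 and Prrx1 were also higher in replicate 2, while T, Mesp1, Tbx5 and Tbx6 were lower. The part of these differences in the Hoxc gap was not tested.

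**Figure D4:**
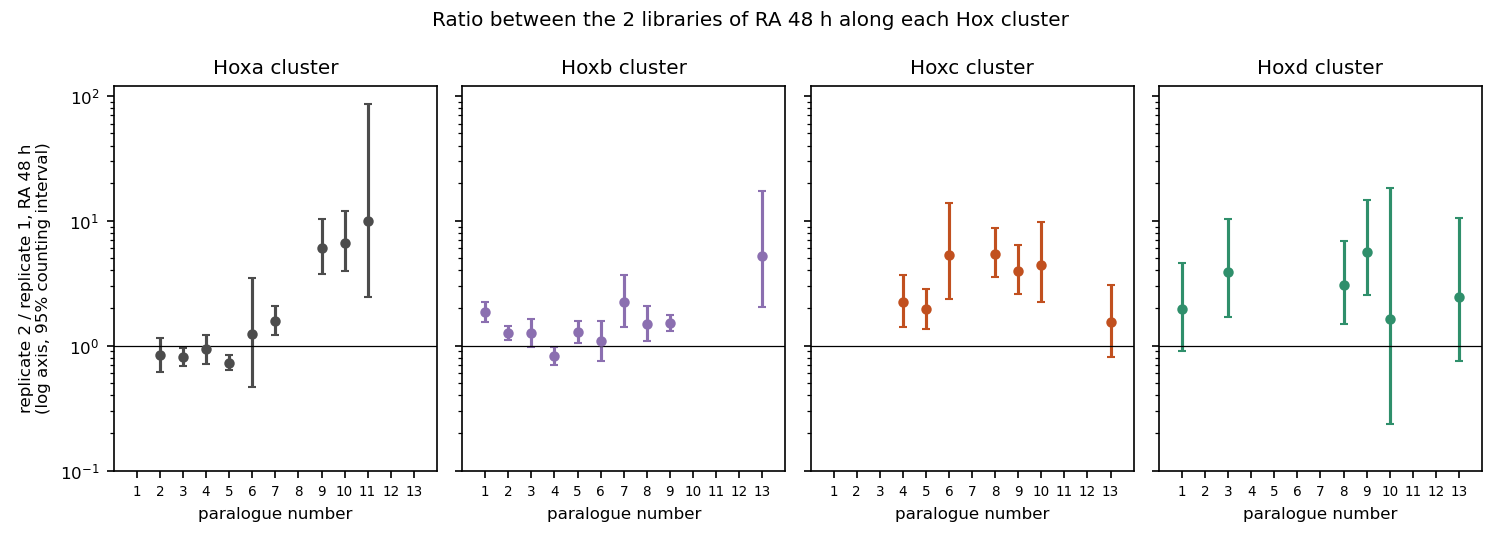
Ratio of counts in replicate 2 to replicate 1 of RA 48 h, at equal gene counts and on a log axis, by paralogue number, 1 panel for each Hox cluster, with 95% intervals for counting error. The 7 Hoxc genes lie between 1.55 (Hoxc13) and 5.46 (Hoxc8), and Hoxa2, Hoxa3, Hoxa4 and Hoxa5 between 0.731 and 0.933. Hoxa9, Hoxa10, Hoxa11 and Hoxd9 lie above every Hoxc gene, at 5.65 (Hoxd9) to 9.89 (Hoxa11).

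DMSO of the same time is 1 library each, in which Hoxc4, Hoxc5, Hoxc6, Hoxc8, Hoxc9 and Hoxc10 had 0 or 1 counts. Both DMSO libraries are in set 1, while the RA group of each time joins 1 library of set 1 and 1 of set 2. At 24 h Hoxc4 was at least 8.31-fold and Hoxc5 at least 12.8-fold above the floor of the DMSO library. Of the 9 genes edgeR called 1 higher at 24 h (Hoxc5, adjusted p = 0.0453), where 1.29% of all genes were called higher, and the adjusted p of Hoxc4 was 0.0669. Without 24 h replicate 1 the adjusted p of Hoxc5 was 0.114.

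At 48 h Hoxc4 counts were 37.1 times those of the DMSO library (6.5 to 1480), and Hoxc5 was at least 19.3-fold, Hoxc8 at least 24.4-fold, Hoxc9 at least 20.2-fold, Hoxc10 at least 8.52-fold and Hoxc6 at least 6.92-fold above its floor. Hoxc13 had 4.59 times the DMSO counts (1.68 to 17.6). These folds pool both 48 h RA libraries. Replicate 1, the RA library in the set of the DMSO library, held fewer counts of each gene than replicate 2. It held 24 against 159 for Hoxc8 and 10 against 54 for Hoxc10. Hoxc4 (adjusted p = 0.048) and Hoxc5 (0.0166) were called by edgeR, where 4.8% of all genes were called higher, and the adjusted p was 0.0941 for Hoxc8, 0.111 for Hoxc9, 0.115 for Hoxc10, 0.218 for Hoxc6 and 0.35 for Hoxc13. Leaving out either 48 h replicate, with 1 library then on each side, lowered the number of Hoxc calls and that of calls over all genes. Of pooled DMSO against 0 h, edgeR called 0 Hoxc genes (0 at an unadjusted p under 0.05, against 2.75% of all genes higher, and 0 by DESeq2) and 0% of all genes higher.

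Hoxa and Hoxb genes were called from 6 h on. At 6, 12, 24 and 48 h edgeR called 6, 6, 8 and 9 of 10 tested Hoxa genes and 5, 7, 9 and 10 of 10 tested Hoxb genes higher, and 0, 0, 0 and 1 of 7 tested Hoxd genes. The 1 Hoxd gene at 48 h was Hoxd9, a call lost without any 1 of the 4 libraries of 0 h (edgeR adjusted p up to 0.0995), and Hoxd11 was called lower, a call lost without 0 h replicate 4 or 48 h replicate 1 or 2 (adjusted p up to 0.163). From 24 h to 48 h edgeR called 0 Hoxa, Hoxb and Hoxd genes in either direction without the block. With the replicate number as a block, which called 7.18% of all genes lower, Hoxa3, Hoxa4 and Hoxa5 fell (log2 changes of -1.0, -1.49 and -1.12), as did Hoxb1 (-1.21) and Hoxb5 (-1.28), while Hoxd8 rose by 3.84 ± 0.84 (SE, edgeR adjusted p = 0.00832). By position and without the block, the 3 tested Hoxa genes of the numbers 9 to 13 had positive changes (median 1.85), as had 1 of 2 Hoxb genes (0.105) and 1 of 4 Hoxd genes (-0.265) of these numbers. Of the numbers 1 to 8, 2 of 8 Hoxb genes (median -0.625) and 3 of 3 Hoxd genes (2.64) had positive changes. For Hoxc, 3 of 3 tested genes of the numbers 9 to 13 and 4 of 4 of the numbers 1 to 8 had positive changes. Whether the clusters differ was not tested.

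Among genes that act with or on Hox genes, the Pbx, Meis and Pknox cofactors bind DNA beside Hox proteins. Of 9 tested, edgeR called 1, 4, 5 and 6 higher at 6, 12, 24 and 48 h and 0 lower. Over all genes it called 1.47, 2.15, 8.08 and 17.5% higher. The 6 h call was lost without 0 h replicate 2, 3 or 4, and 1 call at 12 h without 0 h replicate 2 or 4. At 24 h and at 48 h 1 call was lost without 0 h replicate 1, 3 or 4. At 48 h Pknox2 rose by 3.75 ± 0.31, Meis3 by 2.79 ± 0.44 and Meis2 by 1.86 ± 0.33 (log2, SE), calls that held with each library left out. Cdx1, a homeobox gene that acts upstream of Hox genes in the embryo, rose at each RA time, by 4.22 ± 0.48 at 6 h and by 1.65 ± 0.48 at 48 h (edgeR adjusted p = 0.0268), the last lost without 0 h replicate 3 or 4 or 48 h replicate 1 or 2 (adjusted p up to 0.122).

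Of 17 Polycomb subunits, 2 rose and 4 fell at 24 h and 4 rose and 5 fell at 48 h, where 4.26% of all genes fell at 24 h and 12% at 48 h, beside the shares that rose (8.08 and 17.5%). The largest changes called at 48 h were those of Cbx8 (3.04 ± 0.65, log2, SE), Phf19 (-2.3 ± 0.29), Phc1 (-1.99 ± 0.18) and Bmi1 (1.92 ± 0.29), and that of Cbx8 was lost without 48 h replicate 1 (adjusted p = 0.0571). Of 7 Trithorax subunits and demethylases, 2 fell at 48 h against 12% of all genes, Wdr5 (-0.89) and Rbbp5 (-0.53), and Rbbp5 was lost without 5 of the 6 libraries in turn (adjusted p up to 0.177).

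Of the genes beside the cluster, Calcoco1, on the 5′ side, rose at 48 h by 1.0 ± 0.21 (SE, edgeR adjusted p = 0.00525), a call lost without 48 h replicate 1 (adjusted p = 0.113). Cbx5 fell by 0.48 (SE 0.16, adjusted p = 0.0454), a call lost with each of the 6 libraries left out in turn (adjusted p up to 0.17). Smug1, on the 3′ side, had a change of 0.34 ± 0.27 (adjusted p = 0.371).

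By Pearson correlation of log2 CPM over the 14 libraries, given as a description since the libraries share time, depth and set, the gene most like Hoxc8 was Hoxc9 (r = 0.995). The next were Cyp1b1, a cytochrome P450 that oxidizes steroids and retinoids (0.988), Fam163a (0.981), the endoderm and heart factor Gata5 (0.975) and the cadherin Fat3 (0.975). For Hoxc9 they were Hoxc8, Gata5 (0.989), Ccdc80 (0.988) and the fibrinogen chain Fgb (0.983). Cyp1b1 stood at 9.54 and 43.4 CPM in 48 h replicates 1 and 2, so it shares with Hoxc8 both the late time and the gap between replicates. Among the Hoxc genes themselves r was 0.97 for Hoxc4 with Hoxc5 and for Hoxc9 with Hoxc10, and 0.727 for Hoxc4 with Hoxc9.

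Values of single Hoxc genes are uncertain where transcripts overlap. Hoxc4, Hoxc5 and Hoxc6 are known to share long transcripts, antisense RNAs are known in Hox clusters, and whether reads were counted by strand is not given in the sources used here. Reads that could belong to more than 1 gene were kept apart in the tables, 58456 to 78934 per library over all genes.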

How the data were processed

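Per the labels, mRNA libraries came from TruSeq V2 kits, with single-end reads of 72 or 50 bp. The submitters' processing notes name TopHat2 2.0.7, HTSeq and DESeq, with build mm9 and without options. What the authors deposited for each library is a table of raw counts, 1 whole number per Ensembl gene. The 5 entries for reads given to no gene held 72.52 to 76.78% of each table and were left out of library totals. The deposited list of receptor regions was not used, since mm9 gene positions were not at hand.

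The test was the quasi-likelihood F-test of edgeR 4.0.16 (R 4.3.3), from 1 model of 14 libraries, 7 groups, TMM factors (0.9291 to 1.095), robust estimation and edgeR's default filter, which kept 16155 genes (15508 with a symbol). The spread is shared over groups, so a group with 1 library is taken to vary as much as the rest. Tests are two-sided, with Benjamini-Hochberg adjustment over all genes tested and calls at an adjusted p under 0.05. The SE is the absolute log2 change over the square root of F. CPM are scaled by TMM. Count ratios use group sums at equal gene counts, with exact conditional 95% intervals. A reference at 0 counts is set to a floor of 3 counts over its group, with the counts of the other group taken as observed. Intervals cover the counting error of summed reads and not the spread between libraries, and floors cover the counting error of the reference alone. Reads carried no molecular identifiers, so counts are of reads and not of molecules. Gene counts were 7.08 to 10.9 M per library. The fit was tested on simulated data. Plots and summaries used Python 3.11.15, NumPy 2.4.6, SciPy 1.17.1 and matplotlib 3.10.9.

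The members, lists and tests were chosen with earlier results of these data known. The text names all 9 members, up to 4 called genes with the largest change from each compared list, and the 5 genes most like each of the 2 members highest at 48 h (log2 CPM, prior count 3). Genes called under the block, Hoxd9, Hoxd11, the replicate gaps and the cluster's neighbours were named after their values were seen. For 3 genes named by these choices, values are not reported here.

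Alternatives were RLE normalization, DESeq2 1.42.0, other filters, the replicate number as a block, a term for the library set, the compared groups alone and each library left out. Deviations of same-numbered libraries correlated between groups (r 0.66 to 0.792, median 0.687, over 10 pairs of groups), so the numbers pair the libraries in the data. Within an RA time number and library set mark the same split and cannot be told apart, while 0 h replicates 2, 3 and 4 are all in set 2.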

Additional observations from a re-analysis of the deposited data

Results flagged for a closer look

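Among the groups of 4 libraries, which here means 0 h alone, Hoxc5 had 1 library apart from the others. Replicate 4 stood at 0.0973 CPM, which is 1 count, and the other 3 libraries had 0 counts. The gap to the nearest library is the whole range of the group, above Dixon's 95% critical value for 4 samples. With 1 count among 4 libraries that ratio is reached by construction, so it says nothing beyond the single count.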

How the results depend on the processing

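Of 576 recomputed values over 56 results, 545 kept their side of the threshold, 18 lost a call, 13 gained one and 0 reversed a call. The 545 include values that changed sign without passing in either fit. Hoxc5 at 6 h, for example, had a log2 change of 0.74 in the report and of -1.58 without 6 h replicate 2. The number of Hoxc genes called at 48 h against 0 h, 7 in the report, was 3 by DESeq2, 2 with at least 1 CPM in 4 libraries, and 4 with replicates 1 and 2 alone and no block, a setting added after seeing the data. In these settings 17.2, 18 and 10.6% of all genes were called higher. Only 2 Hoxc genes reached 1 CPM in 4 libraries, so the others were not tested in that setting. With single libraries left out the number of Hoxc calls was the same or lower, and fewer genes were called over all genes too. For 48 h against 24 h the number was 3 rather than 0 with the replicate block and 3 with the library set term (9.63 and 6.4% of all genes called higher). It did not rise with any library left out. Against DMSO at 24 h the set term gave 2 rather than 1 (5.83% of all genes called higher). Leaving out either RA library, with 1 library then on each side, kept or lowered the number. Against DMSO at 48 h no filter gave 1, the set term 4 and the compared groups alone 5, rather than 2 (2.76, 12.6 and 6.77% of all genes called higher). Leaving out either RA library, with 1 library then on each side, lowered the number. The causes were not tested, except that fewer libraries or genes enter some settings by construction. The replicate block changed no other count of Hoxc calls by over 1.5 times.

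No paired analysis by replicate number was possible for the DMSO comparisons because the DMSO labels give no number (the set term, fitted for them, stands above), and neither DMSO library was left out of its own comparison, which rests on it. With 2 to 16 Hoxc counts per library at 0, 6 and 12 h, depth limits the early times. At 48 h the replicates differed by more than counting error for the tested Hoxc genes other than Hoxc13. The log2 changes of genes at 0 counts in the reference depend on the prior count.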

Other observations

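The replicate gap at 48 h was seen in the other clusters too, by gene. In CPM, replicate 2 was at least 2 times replicate 1 for 3 of 10 tested Hoxa genes (Hoxa9, Hoxa10 and Hoxa11), 2 of 10 Hoxb genes (Hoxb7 and Hoxb13) and 4 of 7 Hoxd genes (Hoxd3, Hoxd8, Hoxd9 and Hoxd13), besides 5 of the Hoxc genes. Over all tested genes with counts in replicate 1 the share was 8.14%. These genes were chosen after their values were seen, and the difference was not tested.

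Hoxc13 and Hoxc12 are neighbours at the 5′ end. Over the 14 libraries Hoxc13 had 97 counts and Hoxc12 had 2, and Hoxc11, on the other side of Hotair, had 0. Gene lengths were not used, so these are counts and not levels per transcript. Hoxc13 counts were present in 3 of 4 libraries at 0 h, where Hoxc6, Hoxc8 and Hoxc9 had 0 in 4 of 4.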
